A study of Mus musculus with 42 samples.

Results

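The genes described here are the mouse proteasome and immunoproteasome subunits, with their activators, inhibitor and assembly chaperones. They are the rows of the deposited gene table whose symbol begins with Psma to Psmg followed by a number and that are not pseudogenes. A row also had to reach 10 in 3 or more of the 42 libraries. Of 54 symbols of this form 4 were pseudogenes and 2, Psma8 and Psmb11, stayed under the filter, which left 48 members among 47729 rows and 16613 genes tested. Psma8, the germ cell alpha subunit, never exceeded 9.553, and Psmb11, the thymic catalytic subunit, never exceeded 0.742. The interferon-induced Psmb8, Psmb9, Psmb10, Psme1 and Psme2 were set beside the other 43. Psmc3ip matches the symbol form but encodes a recombination factor and not a proteasome subunit, and reads of Psme2b, a near-identical copy of Psme2, may have been split between both genes in the counting, so values of Psme2b are uncertain.

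The libraries came from Pan02 tumours, grown under the skin of wild-type C57BL/6 mice from a mouse pancreatic adenocarcinoma cell line. Mice received vehicle (PBS in the labels' protocol) or BXCL701, also known as talabostat, an oral inhibitor of dipeptidyl peptidases, at 20 ug per mouse daily by gavage. The vehicle groups were taken at hour 0 of days 1, 7 and 14. The BXCL701 groups were taken at 1, 8 and 16 h of day 1, after a single dose, and at 0, 1, 8 and 16 h of days 7 and 14, after 7 or 14 daily doses. Each of the 14 groups held 3 mice, whose age and sex the labels do not state. The labels list vehicle tumours only at hour 0, so treatment and hour cannot be told apart at 1, 8 and 16 h. The title names an exploration of DPP inhibition and the immune landscape of the tumour, and the question asked of these genes is whether their RNA differed between BXCL701 and vehicle tumours.

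The proteasome is the protease that degrades ubiquitin-tagged proteins. Its core is a stack of rings in which alpha subunits form the gate and beta subunits hold the catalytic sites, and a regulatory particle of ATPase and non-ATPase subunits recognises and unfolds the substrate. Under interferon gamma, and constitutively in many leukocytes, Psmb8, Psmb9 and Psmb10 are built into new cores in place of Psmb5, Psmb6 and Psmb7, and Psme1 with Psme2 forms the PA28 cap; this immunoproteasome yields peptides suited to MHC class I.

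Psmb8 and Psmb9 lie in the MHC class II region of chromosome 17 (GRCm38 17:34197721-34201454, plus strand, and 17:34181987-34187764, minus strand), close to Tap1 and Tap2. Psme1 and Psme2 lie beside each other on chromosome 14 (14:55578123-55581529, plus strand, and 14:55587441-55591113, minus strand), and Psmb10 lies on chromosome 8 (8:105935735-105938444, minus strand). RefSeq promoters (GRCm38.p6) were matched for all 5 interferon-induced members and for 36 of the other 43. In the 250 bases before the start, on both strands, an interferon-stimulated response element-type motif (GAAA, any 2 bases, GAAA) was found in 0 of the 5, in 3 of the 36 (Psmb3, Psmd4 and Psmd9) and in 2.98% of 32851 mouse promoters. A gamma-activated site-type motif (TTCNNNGAA) was found in Psmb8 and in 1 of the 36, Psmg1, and in 7.02% of all promoters. An antioxidant response element-type motif (TGACNNNGC), a class of site read by Nfe2l1 and Nfe2l2, was found in 0 of the 5, in 5 of the 36 (Psmb5, Psmb6, Psmc6, Psmd12 and Psmd9) and in 10.16% of all promoters. Psmd9 held an interferon-type and an antioxidant-type match that did not overlap. A match describes letters and not a bound site. The matches in Psmb8 and in the counterparts it and Psmb9 replace, Psmb5 and Psmb6, are shown with 29 bases each because these genes form the ratios described further on; capitals mark the match, 97, 47 and 9 bases before RefSeq's start, which for Psmb8 lies inside the gene's span given above.
Psmb8 (chr17:34198088-34198116, plus strand): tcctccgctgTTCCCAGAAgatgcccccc
Psmb5 (chr14:54618024-54618052, minus strand): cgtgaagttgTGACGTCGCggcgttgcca
Psmb6 (chr11:70525328-70525356, plus strand): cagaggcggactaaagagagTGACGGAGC

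Library totals ran from 19133149 to 26633378 scaled estimated reads. The tumour line's epithelial and pancreatic markers were present in every library, among them Krt8 (9774 to 45922), Krt18 (4565 to 31584) and Pdx1 (512 to 1062), while Epcam was as low as 1.7. A transcript-length index, the slope of a library's gene deviations on log2 transcript length, is negative where short transcripts are relatively high. It set 4 libraries apart, with values of -0.411 (BXCL701 day 7 8 h, replicate 3), -0.368 (vehicle day 1, replicate 2), 0.333 (vehicle day 7, replicate 2) and 0.326 (BXCL701 day 7 0 h, replicate 2), and values without these 4 are given beside the comparisons they enter. What the index reflects was not tested.

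Levels per length were compared in log2 FPKM. Psme1, a PA28 subunit, had the highest mean of all members (8.34 ± 0.41, SD, n = 42), and Psmc3ip the lowest apart from Psme2b (3.39 ± 0.28). Constitutive subunits of core and regulatory particle, 31 genes, had means between 5.62 and 8.26 with a median of 7.19. Assembly chaperones, which help build the particle and leave it, were lower, with means from 4.27 (Psmd9) to 6.31 (Psmg4). Of the inducible catalytic subunits Psmb8 had a mean of 7.75 ± 0.68, close to 7.60 ± 0.31 for its counterpart Psmb5. Psmb10 had 6.99 ± 0.52 against 7.18 ± 0.22 for Psmb7, and Psmb9 had 5.85 ± 0.70 against 8.25 ± 0.30 for Psmb6. In the order of the 47 members other than Psme2b, 37 of 46 neighbouring pairs were closer than the smaller SD of the pair. Psme2b, listed at 0 in some libraries, is not ordered.

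**Figure D1:**
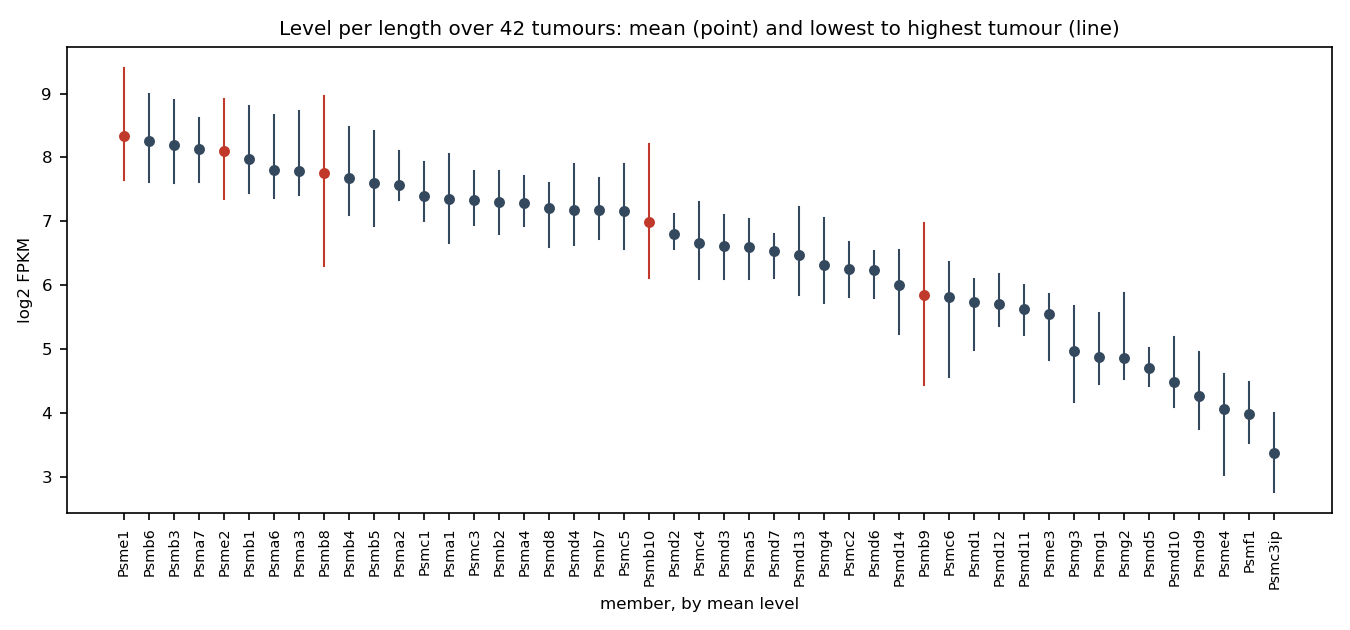
Level per length of 47 members (Psme2b is not drawn). The y axis is log2 FPKM, points are means over 42 tumours, lines run from the lowest to the highest tumour, and red marks the 5 interferon-induced members. Psmb8 and Psmb9 have the longest lines, and Psme1 stands first with a mean of 8.34.

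Apart from Psme2b, the interferon-induced members varied most from tumour to tumour. On the log2(value + 1) scale of the gene table the SD over 42 tumours was 0.722 for Psmb9, 0.709 for Psmb8, 0.565 for Psmb10, 0.461 for Psme1 and 0.445 for Psme2. The 31 constitutive subunits had SDs from 0.131 (Psmd11) to 0.384 (Psmb5), with a median of 0.274, and 7076 genes with a mean log2 value between 9 and 13 had a median of 0.297. Psmb9 differed 6.99-fold between its highest and lowest tumour, Psmb8 6.71-fold, Psmb10 5.42-fold and Psme1 4.31-fold, and no other member apart from Psme2b exceeded 4-fold. The highest Psmb8 values of all 42 were 10106 in BXCL701 day 7 8 h replicate 3 and 9329 in vehicle day 1 replicate 2, the libraries with the lowest length index.

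After 14 days Psmb8 and Psmb9 were high in most BXCL701 tumours relative to vehicle. Most constitutive subunits lay slightly lower with all libraries, and in those followed below the difference was smaller without vehicle replicate 2. Psmb8, the chymotrypsin-like site of the immunoproteasome, was at 1529, 1507 and 2383 in vehicle tumours and ran from 1946 through a median of 3281 to 5726 in 12 BXCL701 tumours. The highest vehicle tumour overlapped the lowest of the BXCL701 tumours. Psmb9, which replaces Psmb6, was at 527, 573 and 891 in vehicle tumours and ran from 797 through 1351 to 2744 with BXCL701. The log2 difference was 1.03 ± 0.35 (SE) for Psmb8 and 1.15 ± 0.34 for Psmb9 (limma, adjusted p = 0.0975 and 0.0527 over 16613 genes), so neither passed 0.05. Psmb10 was at 1862, 2661 and 1891 in vehicle tumours and from 1974 through 2703 to 4559 with BXCL701, a difference of 0.41 ± 0.29. In bulk tumours fewer cells of a type and less RNA per cell cannot be told apart. Psme1 ran from 3915 through 5576 to 8750 against 4527, 5983 and 4248, and Psme2 from 2749 through 3852 to 6044 against 3553, 5566 and 3049; both pairs of groups overlapped widely.

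Of the 48 members 1 fell and 0 rose on day 14, where 3.29% of all genes tested changed, 2.26% upward and 1.03% downward. At an unadjusted p under 0.05 there were 16 of 48 members, beside 17.8% of all genes. The member was Psmg2, a chaperone of alpha ring assembly, with a log2 difference of -0.50 ± 0.14 (limma adjusted p = 0.0356). Psmg2 was at 572, 1133 and 545 in vehicle tumours and ran from 412 through 499 to 607 with BXCL701. The value of 1133 came from vehicle replicate 2, and without that library the difference was -0.164 with an adjusted p of 0.987. The 5 interferon-induced members all had positive differences with a median of 0.41. Among them Psme1 had 0.29 ± 0.25 and Psme2 0.04 ± 0.24, the last well within its SE. Of the other 43, 36 had negative differences with a median of -0.23 over the 43, beside a median of -0.01 over all genes. The 7 constitutive beta subunits lay between -0.48 and -0.15, the 6 ATPases between -0.30 and -0.09, and 9 of 11 non-ATPase subunits were negative. Psma3 and Psma2, subunits of the alpha ring, had -0.44 ± 0.14 and -0.30 ± 0.11 without passing (adjusted p = 0.0674 and 0.115). Vehicle replicate 2 was the highest of its group in both, at 7451 beside 5016 and 3367 for Psma3 and at 4526 beside 3508 and 2581 for Psma2. How far the negative differences rest on that library is given only for Psmg2 and, further on, for Psmb5, Psmb6 and Psmb7. In each of these genes the difference was smaller in size without it. Psmd11, a scaffold subunit of the regulatory particle, had the smallest p among the positive members after Psmb9 and Psmb8 (0.14 ± 0.09, adjusted p = 0.453). Psme3, the nuclear PA28 homologue that interferon does not induce, differed by 0.08 ± 0.09, Psme4 (PA200) by 0.08 ± 0.12 and the inhibitor Psmf1 by 0.04 ± 0.12. No member, in either direction, had groups free of overlap on day 14, where 0.843% of genes were higher and 0.476% lower without overlap.

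With the length index as a covariate, 4 members passed as higher on day 14, Psmb8 (1.29, adjusted p = 0.00416), Psmb9 (1.36, adjusted p = 0.00414), Psmb10 (0.64, adjusted p = 0.0338) and Psme1 (0.49, adjusted p = 0.0469), and 6 as lower. In that fit 7.78% of all genes passed as higher and 10.1% as lower, so the counts of 4 and 6 among 48 members lay close to the background. Vehicle day 14 replicate 3 had the highest Psmb8 and Psmb9 of its group. Without it 2 members passed as higher (Psmb8 and Psmb9) and 11 as lower, beside 7.02% and 5.14% of all genes. That fit keeps replicate 2, the highest vehicle tumour in Psmg2, Psma3 and Psma2. Genes of skin and muscle next to the graft lay lower with BXCL701 on day 14 (10 of 10 keratinocyte markers, median -1.44, and 10 of 10 skeletal muscle markers, median -0.54, with 0 past the test), and all 8 adipocyte markers lay higher (median 0.96, 0 past the test). With the levels of keratinocyte, muscle and adipocyte lists as covariates Psmb8 differed by 0.95 and Psmb9 by 1.04.

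**Figure D2:**
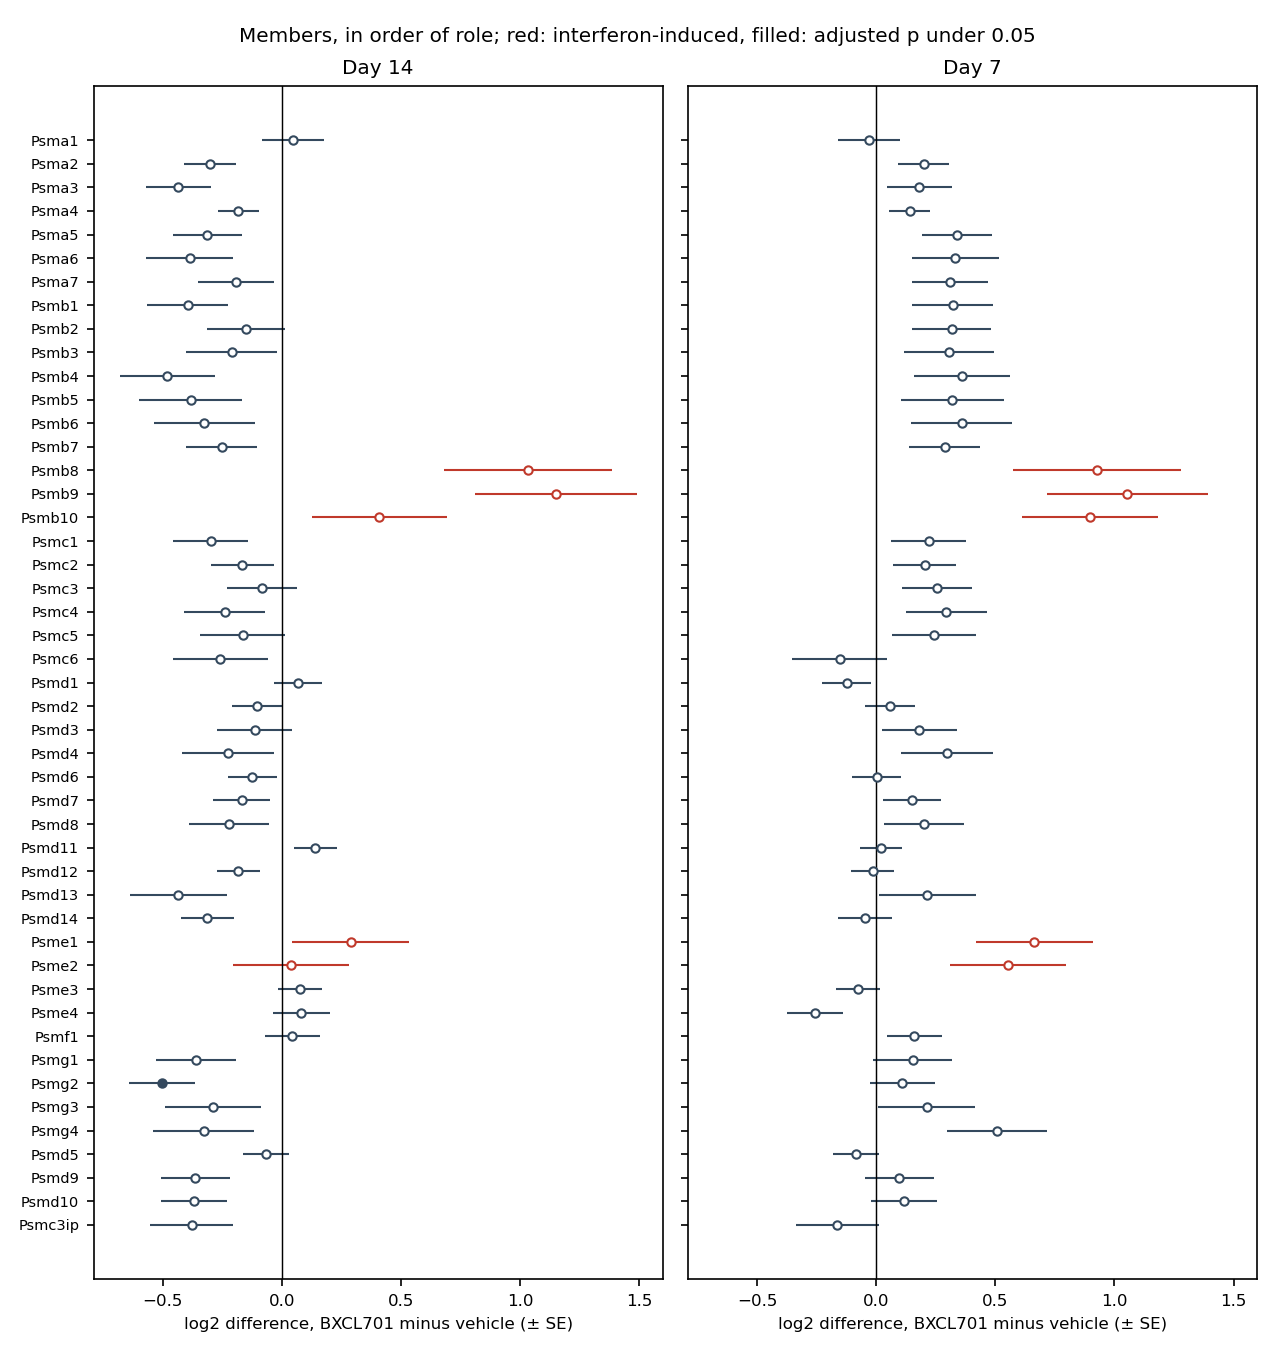
Difference between BXCL701 and vehicle for 47 members in order of role, on day 14 (left) and day 7 (right). The x axis is the log2 difference of log2(value + 1), bars are SE from limma, red marks interferon-induced members, and the filled point is Psmg2, the member that passed. Psme2b is not drawn. On day 14 Psmb8 and Psmb9 lie near 1 and the 7 constitutive beta subunits left of 0, and on day 7 both sets lie right of 0.

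On day 7 the 5 interferon-induced members had the highest differences of the set, from 0.55 to 1.05, above 0.51 for the chaperone Psmg4, the next member. In either direction 0 members passed, where 0.00602% of genes, a single gene, changed. At an unadjusted p under 0.05 there were 8 of 48 members, beside 9.87% of all genes. Psmb10, which carries the trypsin-like site, was at 2613, 1547 and 1683 in vehicle tumours and ran from 1957 through 3426 to 7954 with BXCL701. Psmb9 was at 1371, 645 and 891 and ran from 1183 through 1969 to 3565. Psmb8 was at 3808, 1699 and 2174 and ran from 2331 through 4408 to 10106. In each of these genes vehicle replicate 1 lay inside the BXCL701 range. The log2 differences were 0.90 ± 0.29 for Psmb10, 1.05 ± 0.34 for Psmb9, 0.93 ± 0.35 for Psmb8, 0.66 ± 0.25 for Psme1 and 0.55 ± 0.24 for Psme2, with limma adjusted p between 0.462 and 0.493. The other 43 had a median of 0.18, with 33 positive, opposite in sign to their day 14 median. Psme4 was the negative member of smallest p (-0.26 ± 0.12, adjusted p = 0.493), followed by Psmd1 (-0.13 ± 0.10) and Psmc3ip (-0.16 ± 0.17). The day 7 tumours collected at 8 h differed from vehicle by 1.40 ± 0.43 for Psmb9, 1.39 ± 0.45 for Psmb8 and 1.27 ± 0.36 for Psmb10 (limma adjusted p = 0.077, 0.0785 and 0.0723), with 0 members past the test where 0.301% of genes passed. This group holds the library of lowest length index. Without the 4 libraries of extreme length index these 3 differences were 0.87, 0.79 and 0.72 (limma adjusted p = 0.986 for each). For all day 7 tumours the median was then 0.65 for the interferon-induced members and 0.11 for the rest.

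On day 1, after a single dose, 0 members passed and 0% of genes did; 0 members had an unadjusted p under 0.05, beside 2.63% of all genes. All 5 interferon-induced members had negative differences (-0.53 to -0.45). The lower members of smallest p were the chaperone Psmd9 (-0.29 ± 0.15) and the ATPases Psmc1 (-0.31 ± 0.16) and Psmc5 (-0.35 ± 0.18), all with an adjusted p of 0.906. Vehicle replicate 2 was the highest vehicle tumour of day 1 in Psmd9, Psmc1 and Psmc5 (1217, 7545 and 6233). It was also the highest in Psmb8, at 9329 beside 3036 and 2797 in the other vehicle tumours. Without that library the median of the 5 was 0.00 and that of the rest -0.07. Among BXCL701 tumours of day 1 the 3 collected at 8 h had uniformly low Psmb8 (1963, 1895 and 1728), and those at 1 and 16 h spread from 1511 to 6543. The 8 h tumours did not pass against vehicle (Psmb8 -1.21 ± 0.45, limma adjusted p = 0.278), and without vehicle replicate 2 and the other 3 libraries of extreme length index Psmb8 differed by -0.65.

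At matched 0 h harvests, days 7 and 14 together, 6 BXCL701 tumours were compared with 6 vehicle tumours. Psmb9 differed by 1.04 ± 0.30 (limma adjusted p = 0.107), Psmb8 by 0.89 ± 0.32 (adjusted p = 0.213) and Psmb10 by 0.52 ± 0.26 (adjusted p = 0.459), and 0 of 48 members passed where 0.512% of genes did, 0.476% upward and 0.0361% downward. At an unadjusted p under 0.05 there were 6 of 48, beside 10.8% of all genes. The other 43 had a median of -0.09. Without the 4 libraries of extreme length index Psmb9 differed by 0.98 and Psmb8 by 0.88 (limma adjusted p = 0.266 and 0.306), and the other 43 had a median of -0.06. Psmd10, an assembly chaperone also called gankyrin, was the lower member of smallest p (-0.31 ± 0.12, adjusted p = 0.308), followed by the deubiquitinase subunit Psmd14 (-0.24 ± 0.10) and Psmg2 (-0.28 ± 0.12). These libraries also stand in the day 7 and day 14 comparisons.

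**Figure D3:**
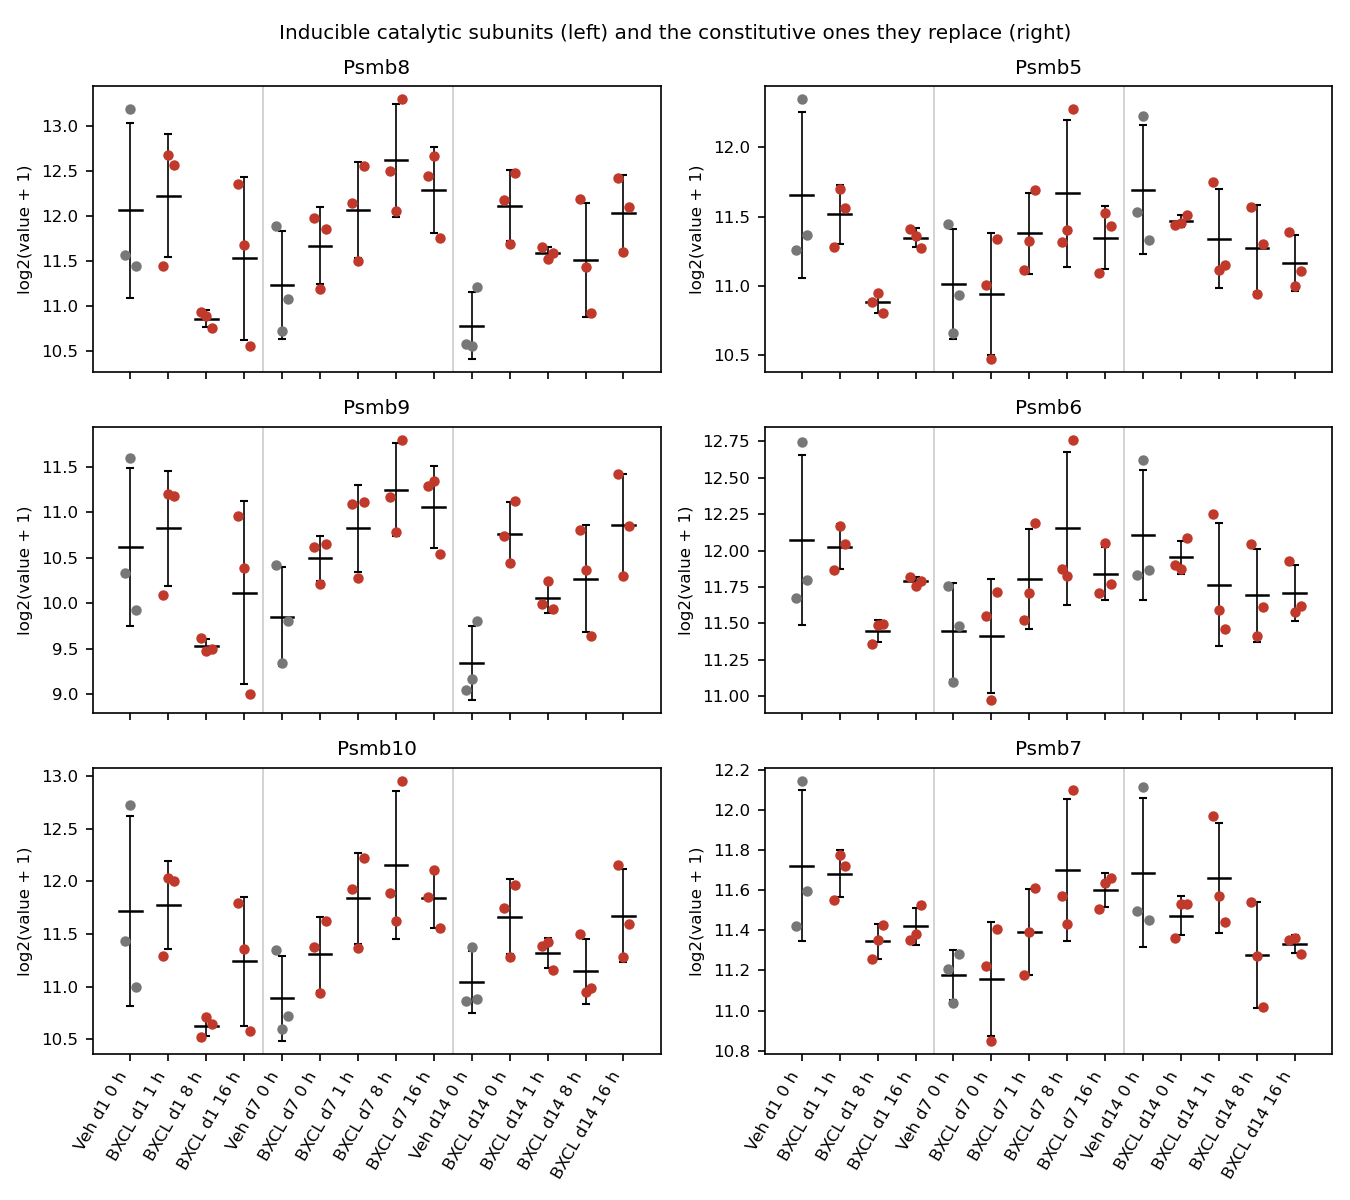
The 3 inducible catalytic subunits (left) and the constitutive subunits they replace (right) in every tumour. The y axis is log2(value + 1), grey points are vehicle and red points BXCL701 tumours, black bars are the mean and SD of 3 mice, and thin vertical lines part days 1, 7 and 14. Psmb8 and Psmb9 are lowest on average in vehicle tumours of day 14, where Psmb5 is highest on average.

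The balance between catalytic subunits was followed at the RNA level, within each tumour, as the log2 ratio of the inducible to the constitutive gene (1 added to each value). On day 14 the ratio of Psmb8 to Psmb5 was -0.952, -1.665 and -0.112 in vehicle tumours and ran from -0.372 through 0.547 to 1.032 with BXCL701, so that 11 of 12 treated tumours lay above all vehicle tumours. It rose by 1.42 (mean 0.51 ± 0.43, SD, n = 12, against -0.91 ± 0.78, n = 3; two-sided exact permutation p = 0.0044, adjusted p = 0.012 over 12 tests, smallest possible p 0.0022). The ratio of Psmb9 to Psmb6 rose by 1.48, from -2.77 ± 0.70 (n = 3) to -1.29 ± 0.48 (n = 12; exact permutation p = 0.0044, adjusted p = 0.012), with 11 of 12 above all vehicle tumours. The ratio of Psmb10 to Psmb7 rose by 0.66, from -0.65 ± 0.09 (n = 3) to 0.02 ± 0.40 (n = 12; exact permutation p = 0.011, adjusted p = 0.0176). Without any 1 of the 3 vehicle tumours the last of these no longer passed (adjusted p between 0.0586 and 0.0733), and the others did (adjusted p up to 0.0377). Among BXCL701 tumours of day 14 the ratio of Psmb8 to Psmb5 averaged 0.65 ± 0.37 at 0 h, 0.25 ± 0.30 at 1 h, 0.25 ± 0.54 at 8 h and 0.88 ± 0.24 at 16 h (SD, n = 3 each). The 16 h tumours (0.602 to 1.032) lay above those of 1 h (-0.089 to 0.436), and the difference was not tested.

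On day 7 the same ratios rose by 0.61 (Psmb8 to Psmb5, exact permutation p = 0.0132, adjusted p = 0.0176, n = 12 and 3), 0.70 (Psmb9 to Psmb6, exact permutation p = 0.0044, adjusted p = 0.012) and 0.61 (Psmb10 to Psmb7, exact permutation p = 0.0132, adjusted p = 0.0176). Of the 12 treated tumours 10, 11 and 9 lay above all vehicle tumours. Without vehicle day 7 replicate 2 or replicate 3, or without the 4 libraries of extreme length index, none of the 3 passed (adjusted p between 0.0565 and 0.141). At 0 h of days 7 and 14 they rose by 1.04, 1.13 and 0.64 (exact permutation within day, n = 6 and 6, p = 0.005, 0.005 and 0.01, adjusted p = 0.012, 0.012 and 0.0176, smallest possible p 0.005). On day 1 they differed by -0.12, -0.14 and -0.27 (exact permutation p = 0.745, 0.732 and 0.473, n = 9 and 3).

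The constitutive side of the ratio lay lower with BXCL701 on day 14. Psmb5 was at 2960, 4781 and 2575 in vehicle tumours and ran from 1970 through 2599 to 3452 with BXCL701, a log2 difference of -0.38 ± 0.22 (limma adjusted p = 0.372) beside 1.03 for Psmb8. Psmb6 was at 3639, 6313 and 3726 and ran from 2729 through 3447 to 4868, and Psmb7 was at 2886, 4436 and 2805 and ran from 2069 through 2711 to 4015. Vehicle replicate 2 was the highest of its group in all 3 genes, and without it Psmb5, Psmb6 and Psmb7 differed by -0.12, -0.067 and -0.038. In vehicle tumours the mean ratio of Psmb8 to Psmb5 was 0.41 on day 1, 0.22 on day 7 and -0.91 on day 14. In BXCL701 tumours it was 0.29 on day 1, 0.83 on day 7 and 0.51 on day 14. Treated tumours were thus not higher on day 14 than on day 7, and the vehicle tumours were lower. From day 7 to day 14 of vehicle, 39 of the 43 other members had positive differences (median 0.42), and Psmb9 and Psmb8 had -0.52 ± 0.43 and -0.45 ± 0.45; 0 members passed, where 0% of genes did. At an unadjusted p under 0.05 there were 24 of 48 members, beside 15.8% of all genes. Without vehicle day 14 replicate 3, 10 members passed as higher and 0 as lower, beside 4.08% and 3.73% of all genes. That fit keeps vehicle day 14 replicate 2. Without the 4 libraries of extreme length index 0 members passed, Psmb9 and Psmb8 had -0.78 and -0.71, and the other 43 had a median of 0.32. Those of smallest p with all libraries were Psma4 (0.42 ± 0.11, limma adjusted p = 0.119), Psmg2 (0.62 ± 0.17, adjusted p = 0.131) and Psma3 (0.58 ± 0.17, adjusted p = 0.135). In each of these genes replicate 2 was the highest vehicle tumour of day 14 (4260, 1133 and 7451). The fit of this comparison without replicate 2 is not given here. From day 1 to day 14 of vehicle Psmb9 and Psmb8 differed by -1.28 ± 0.43 and -1.28 ± 0.45 (limma adjusted p = 0.22 and 0.239), and 0 members passed where 0.0602% of genes did, 0.0542% upward. Without vehicle day 1 replicate 2 these differences were -0.79 and -0.72 (limma adjusted p = 0.626 and 0.667). Whether the effect on day 14 differed from that on day 7 was tested gene by gene, and 0 members passed, where 0% of genes did. At an unadjusted p under 0.05 there were 19 of 48 members, beside 15.6% of all genes, and the other 43 had a median of -0.46 (-0.33 without the 4 libraries of extreme length index). Without vehicle day 14 replicate 3, 9 members passed as lower and 0 as higher, beside 2.61% and 1.98% of all genes. That fit too keeps replicate 2, and the fit without replicate 2 is not given here. The day 14 effect exceeded that of day 1 by 1.61 ± 0.49 for Psmb9 and 1.56 ± 0.51 for Psmb8 (limma adjusted p = 0.374 and 0.407), and 0% of genes passed this comparison. Without the 4 libraries of extreme length index these were 1.12 and 1.00 (adjusted p = 0.884 and 0.916).

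**Figure D4:**
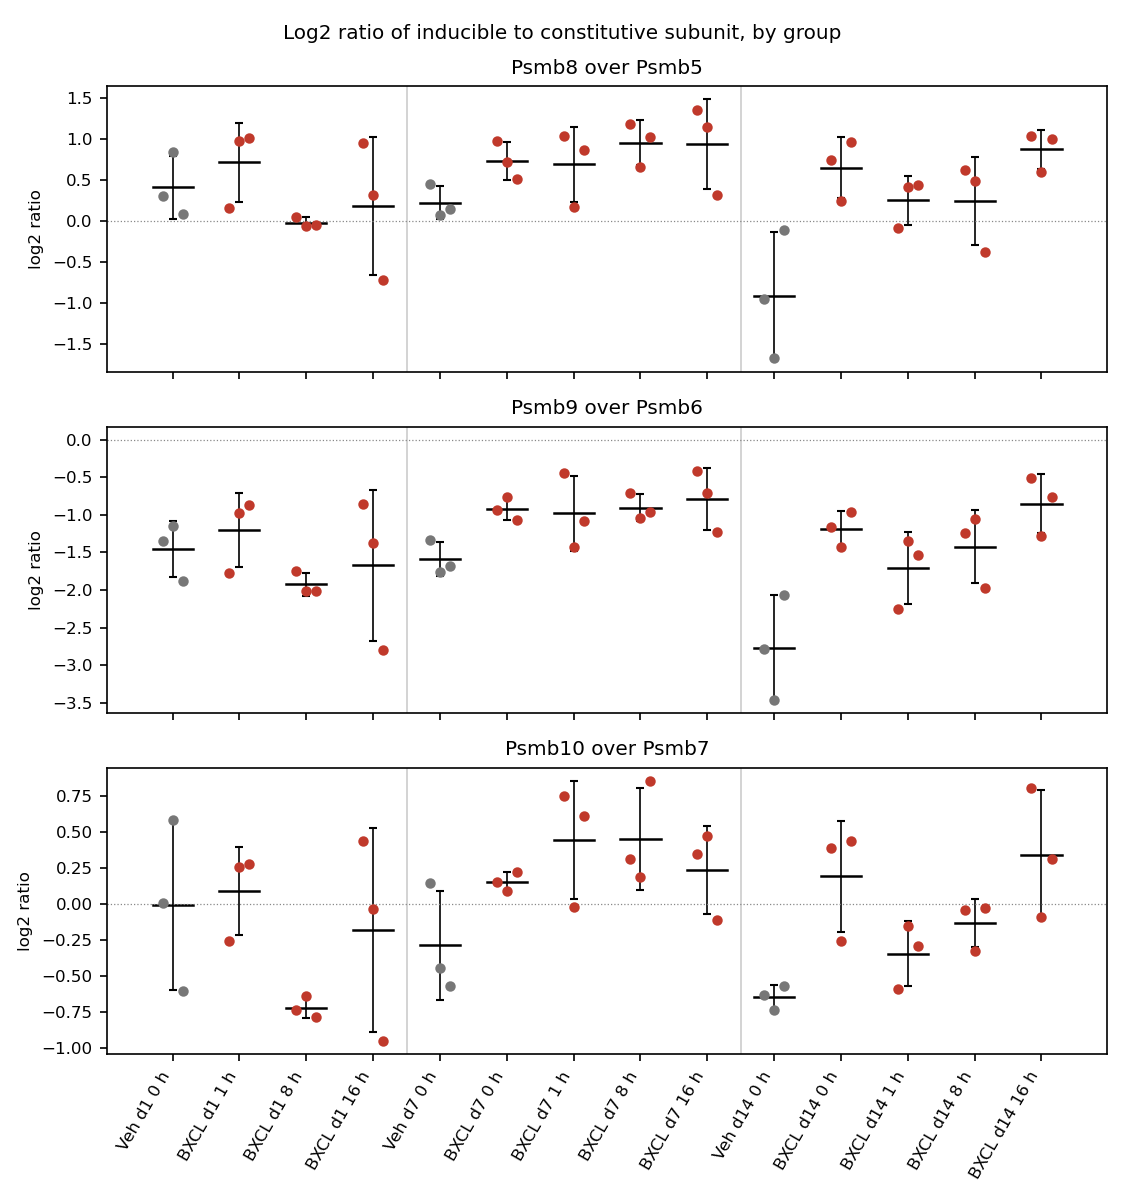
Log2 ratio of each inducible catalytic subunit to the constitutive subunit it replaces, in every tumour. Grey points are vehicle and red points BXCL701 tumours, black bars are the mean and SD of 3 mice, and the dotted line marks equal values. Vehicle tumours of day 14 are the lowest group in the panels of Psmb8 over Psmb5 and Psmb9 over Psmb6, with means of -0.91 and -2.77.

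The ratios moved with the leukocyte marker level of the tumours. The mean log2 level of 8 pan-leukocyte genes (Ptprc, Cd53, Coro1a, Laptm5, Itgb2, Cd52, Lcp1 and Rac2, none at 0 in any library) was 10.58 to 11.26 in vehicle tumours of day 14 and 10.90 to 11.63 with BXCL701, and 11.06 to 11.24 against 11.38 to 11.79 on day 7. All 8 were positive on day 14 and 2 rose, the integrin Itgb2 and the actin-bundling protein Lcp1. In the same tumours 2 of 8 T cell markers rose (Cd8a and Cd8b1), as did 2 of 7 of macrophages and 4 of 8 of neutrophils. Of 6 NK cell markers 2 rose, the cytotoxic granule genes Prf1 and Gzma. Ncr1, Klrb1c, Klrk1 and Eomes of that list did not pass (limma adjusted p = 0.386, 0.511, 0.216 and 0.106). For B cells 0 of 4 and for dendritic cells 0 of 6 passed. Among all genes tested 2.26% rose on day 14. Deviations from the group means of the ratio of Psmb8 to Psmb5 followed that of the list over 42 tumours (Pearson r = 0.798, Spearman rho = 0.706, permutation p = 6e-05 and 0.00021, r = 0.734 without the 2 farthest tumours). The ratio of Psmb9 to Psmb6 gave r = 0.782 and rho = 0.685 (permutation p = 4e-05 and 0.00013, r = 0.725 without the 2 farthest), and that of Psmb10 to Psmb7 gave r = 0.581 and rho = 0.535 (permutation p = 0.0016 and 0.0041, r = 0.572 without the 2 farthest). Among 10 such relations, all adjusted p of these 3 were 0.0068 or lower. With the list as a covariate, the differences on day 14 were 0.33, 0.38 and 0.02 in place of 1.42, 1.48 and 0.66, those on day 7 were -0.22, -0.14 and 0.13 in place of 0.61, 0.70 and 0.61, and those at 0 h were -0.05, 0.03 and 0.00. These covariate values carry no test. On day 7 the list levels of the arms did not overlap. At 0 h they did not either (up to 11.26 in vehicle, from 11.36 with BXCL701). Adjusted values there extend beyond the levels that the arms share. The list itself lay higher with BXCL701, so leukocyte level and treatment cannot be told apart. Under the same covariate in limma all 5 interferon-induced members had slightly negative differences on day 14 (-0.32 to -0.10) and 0 members passed. The share of all genes passing in that fit is not given here, so this count of 0 is no result about the members.

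The transcript-length index moved with most constitutive subunits. Psmb5 followed it with r = -0.899 and rho = -0.859 (permutation p = 1e-05, the smallest 100000 resamples can give, and 2e-05, r = -0.864 without the 2 farthest), and the ratio of Psmb8 to Psmb5 with r = -0.109 and rho = -0.13 (permutation p = 0.49 and 0.46, r = -0.041 without the 2 farthest). Over the 31 constitutive subunits, r with the index had a median of -0.85 and ran from -0.965 (Psmc3) to 0.782 (Psmc6), beside a median of -0.06 over all genes tested. Of the 31, the ATPase Psmc6, the scaffold Psmd1, the alpha subunit Psma1 and the deubiquitinase Psmd14 were positive. Outside them Psme4, the chaperone Psmd5 and Psme2b, whose values are uncertain, were too. Members have a median exon length of 2804 bases, and genes tested one of 4041. Short and long members both followed the index: Psmb5 has 899 bases, and Psmd3 with 4967 bases had r = -0.932. Psma1 with 2952 bases had 0.346. The part of length in these r was not tested. Psmb8 itself had r = -0.632 and rho = -0.619 (permutation p = 0.0004 and 0.00058, r = -0.537 without the 2 farthest).

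**Figure D5:**
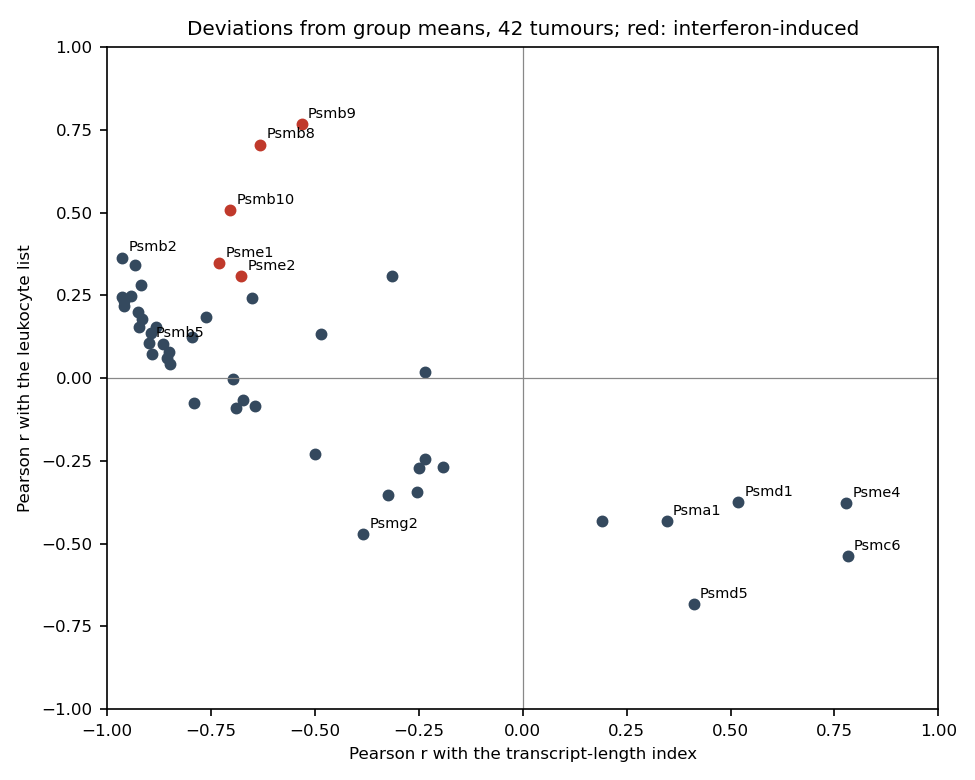
Correlation of each member's deviations from its group means with the transcript-length index (x axis) and with the leukocyte list (y axis), Pearson r over 42 tumours. Each point is 1 of 47 members, red marks the 5 interferon-induced ones, and Psme2b is not drawn. Psmb9 and Psmb8 stand highest on the y axis (0.768 and 0.705), and most constitutive subunits lie at the left edge near 0 on the y axis.

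Within groups the interferon-induced members moved together. Pairwise r of their deviations had a median of 0.89 over 10 pairs, with 0.969 for Psmb8 and Psmb9 and 0.966 for Psme1 and Psme2. Among the 31 constitutive subunits 465 pairs had a median of 0.64 and a range from -0.784 to 0.981. Between both sets Psmb8 and Psmb9 had a median of 0.48 with the constitutive subunits, and Psmb10, Psme1 and Psme2 had 0.71. The members most like Psmb8, by this measure over 42 tumours, were Psmb9 (0.969), Psmb10 (0.900) and Psme1 (0.826). Those most like Psmb5 were the beta subunits Psmb4 (0.968) and Psmb6 (0.966) and the ATPase Psmc5 (0.955). These are descriptions, since all points share their library.

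Between 0 h and 1, 8 or 16 h of BXCL701 on days 7 and 14, 0 members passed, where 0.012%, 0.132% (0.0963% upward, 0.0361% downward) and 0.00602% of genes did; 1, 2 and 3 of 48 members had an unadjusted p under 0.05, beside 2.44%, 9.16% and 2.29% of all genes. Psmb9 differed by -0.19 ± 0.30 at 1 h, and the 5 interferon-induced members by 0.13 to 0.19 at 8 h and by 0.12 to 0.33 at 16 h. Without the 4 libraries of extreme length index the median of these 5 was -0.05 at 1 h, -0.08 at 8 h and 0.145 at 16 h, so the direction at 8 h turned. The alpha subunit Psma4 had the smallest p at 16 h (0.25 ± 0.08) and the chaperone Psmd10 at 8 h (0.32 ± 0.12). Between day 14 and day 1 of BXCL701, 0 members passed where 1.27% of genes did, and PA200 (Psme4) had the smallest p (0.30 ± 0.09, limma adjusted p = 0.0753). From day 7 to day 14 of BXCL701, 0 members passed where 0.012% of genes did. Psmb9, Psmb8 and Psmb10 had -0.419 ± 0.215, -0.347 ± 0.223 and -0.335 ± 0.18 there (limma adjusted p = 0.96 for each).

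The genes around the immunoproteasome were read from lists. On day 14, 2.26% of all genes tested rose and 1.03% fell. Of 11 interferon gamma signalling genes 5 rose on day 14 (median 0.54): the class I transactivator Nlrc5 by 1.47 ± 0.27, the class II transactivator Ciita by 2.08 ± 0.43, and Irf8, Irf9 and Ifngr1 (limma adjusted p from 0.00383 to 0.0353). Ifng itself had 0.98 ± 0.55 and Irf1 0.49 ± 0.26, and neither passed. Of 11 class I loading genes 4 rose (median 0.67): the class I heavy chains H2-K1 by 1.33 ± 0.28 and H2-D1 by 0.96 ± 0.25, B2m by 0.84 ± 0.20, and the peptide transporter Tap1, whose start lies next to that of Psmb9, by 1.204 ± 0.326 (limma adjusted p from 0.00991 to 0.0349). Reads of H2-K1 and H2-D1 may be split among near-identical class I genes. Tap2 had 0.64 ± 0.25 and Tapbp 0.56 ± 0.21 without passing, and the chaperones Calr, Canx and Pdia3 lay between -0.19 and -0.12.

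Of 11 proteasome partners outside the symbol form 2 fell on day 14 and 0 rose (median -0.29): Shfm1, the smallest subunit of the regulatory particle's lid, by 0.60 on the log2 scale, and the proteasome-associated thioredoxin Txnl1 by 0.43 (limma adjusted p = 0.0303 and 0.0316). Among all genes tested 1.03% fell on day 14 and 3.29% changed in either direction. Pomp, the maturation factor of the core, had -0.28 ± 0.19. Of 8 genes around proteasome transcription, among them Nfe2l1 (0.22 ± 0.11) and Keap1 (0.04 ± 0.13), 0 changed (median 0.07). Of 13 ubiquitin and shuttle genes 0 changed (median -0.06). On day 7, 0 genes of these 5 lists changed, where 0.00602% of all genes tested did. Medians were 0.44 for interferon gamma signalling, 0.60 for class I loading and -0.17 for the partners. They were 0.02 for the genes around proteasome transcription and 0.14 for ubiquitin and shuttle genes.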

How the data were processed

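RNA of 42 tumours was sequenced on an Illumina instrument. The submitters' processing notes name GRCm38, Bowtie 0.12.9 and Trimmomatic 0.36; which quantifier, annotation and scaling were applied is not given in the sources used here. Most signal values in the authors' gene table carry decimals despite its name, so they were read as scaled read estimates, and the depth is unknown. The deposited log2 FPKM values served for levels per length and as an alternative. Columns of no listed sample numbered 0. Exon lengths came from GENCODE M21 (47224 of 47729 gene IDs found).

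The 16613 genes that reached 10 in 3 or more libraries were analysed as log2(value + 1), so differences of low genes are understated. A model with 1 mean per group (28 residual degrees of freedom) was fitted with limma 3.58.1 in R 4.3.3, with trend and robust settings, Benjamini-Hochberg adjustment over all genes tested and a threshold of 0.05. Ratios were tested by exact permutation over tumours, and relations by 100000 permutations within groups (numpy and pandas in Python). The scripts were tested on simulated data. In the day 14 comparison 55% of 100 genes changed by 1 on the log2 scale were recovered, and 73% of 100 changed by 2. Of the genes called there, 7.25% had not been changed. A change near 1 can thus be missed. The members, lists and tests were chosen with earlier results of these data known. Named with values were the interferon-induced members, their counterparts, members that passed, those of smallest p in the treatment comparisons, and fixed genes of the lists. A gene of the lists is not reported here and was left out of the counts. Replicates are separate mice, numbered by record order. Alternatives were another scaling, no low-value filter, a pseudocount of 5, the log2 FPKM table, covariates (length index, neighbouring tissue, leukocytes), only the libraries of a comparison, and leaving out each library; leaving out the 4 extreme libraries, and covariates for the ratios, were added after seeing the data.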

Additional observations from a re-analysis of the deposited data

How the results depend on the processing

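No paired analysis was possible because the replicate numbers follow record order and every library is a separate mouse. Over all alternatives 192 values of the ratios kept direction and side of the threshold, 12 lost the threshold, 7 moved and 11 changed sign. Of the counts of members 311 stayed within 1.5 times and 23 moved, and of single members 782 values kept direction and side, 17 passed where they had not, 7 no longer passed and 28 changed sign. Members passing as higher on day 14 numbered 0, and 1 with median-of-ratios scaling, 3 in the log2 FPKM table, 4 with the length index as covariate and 2 without the 4 extreme libraries, none of which is in that comparison. In those fits 3.07%, 3.29%, 7.78% and 3.39% of all genes passed as higher. Members passing as lower numbered 1, and 6 with the length index (10.1% of all genes), 0 with the leukocyte covariate and 0 with the comparison's libraries alone. Shares of all genes for those counts of 0 are not given here, so neither count is a result about the members. At 0 h, 2 passed as higher with the length index (2.37% of all genes). Leaving out 1 library gave 0 to 2 higher and 0 to 11 lower on day 14. At 0 h it gave 0 to 1 higher and 0 to 2 lower. It gave 0 to 9 lower for day 14 minus day 7, and 0 to 10 higher for vehicle day 14 against day 7. Each maximum came without vehicle day 14 replicate 3, in fits that keep replicate 2, and the cause was not tested. Shares of all genes for the counts at 0 h are not given here, so those counts are no result about the members.

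With the leukocyte covariate Psmb8, Psmb9, Psmb10, Psme1, Psme2 and Psme3 differed by -0.166, -0.104, -0.286, -0.12, -0.319 and -0.044 on day 14 and by -0.31, -0.217, -0.17, -0.014, -0.166 and -0.073 at 0 h. The 3 ratios (Psmb8 over Psmb5, Psmb9 over Psmb6, Psmb10 over Psmb7) were then 0.327, 0.378 and 0.021 on day 14, -0.215, -0.136 and 0.126 on day 7 and -0.051, 0.031 and 0.001 at 0 h. On day 7 and at 0 h the leukocyte levels of the arms did not overlap. With the length index Psmb10 over Psmb7 was 0.751 on day 14. Psme2 on day 14 was -0.045 with neighbouring tissue and -0.144 to 0.29 when leaving out 1 library. On day 7 Psmb5 and Psmb6 were -0.058 and -0.021 with the length index. On day 1, without the 4 extreme libraries, Psmb8, Psmb9 and Psmb6 were 0.032, 0.028 and 0.016 and the ratios 0.097, 0.012 and 0.027; on day 7 the ratios were then 0.524, 0.604 and 0.503 (exact permutation, adjusted p up to 0.141). Leaving out 1 library on day 1 gave -0.837 to 0.032 for Psmb8, -0.808 to 0.028 for Psmb9, -0.519 to 0.016 for Psmb6, and -0.281 to 0.097, -0.351 to 0.012 and -0.563 to 0.027 for the ratios. The ratios of day 7 ranged over 0.532 to 0.722, 0.611 to 0.824 and 0.47 to 0.827, and Psmb10 over Psmb7 on day 14 over 0.589 to 0.715. At 0 h Psmb6 ranged over -0.18 to 0.037 and Psme3 over -0.02 to 0.131. Psmg2 on day 14 ranged over -0.692 to -0.164 and passed in 10 of 15 such fits. With 3 vehicle tumours a day, single libraries weigh heavily, and an exact test with 2 left has few arrangements.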
